A study of Mus musculus with 6 samples.

Results

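Creatine cycling is examined here through 8 genes in inguinal white adipose tissue (iWAT): *Gatm* and *Gamt* for synthesis, *Slc6a8* for uptake, *Ckb*, *Ckmt1* and *Ckmt2* for phosphorylation, and *Alpl* and *Phospho1* for the release of phosphate. The genes were chosen by name, and every row of the deposited count table with 1 of these symbols was taken. Of the 8 genes, 7 have a row, with 14 rows between them out of 37024 in all, and 6 have a count above 0 in some library. *Alpl*, the tissue-nonspecific alkaline phosphatase, was not analysed here. The 4 genes with enough counts for the test across all rows were *Gatm*, *Slc6a8*, *Ckb* and *Phospho1*.

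The study asked how the long noncoding RNA *Lexis* affects thermogenesis in fat, through UCP1 and apart from it. RNA was sequenced in bulk from iWAT of C57BL/6 mice kept on Western diet for 12 weeks. Both groups carried the floxed *Lexis* allele. The 3 AdWT-labelled libraries came from littermates without Cre, and the 3 AdKO-labelled ones from mice with Cre under the adiponectin (*Adipoq*) promoter, so that deletion is directed at adipocytes while the other cells of the depot keep the gene. In this bulk tissue, fewer cells of a type and less RNA per cell cannot be told apart. Nothing in the labels says which libraries share a litter or a day.

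In futile creatine cycling, creatine kinase passes the phosphate of ATP to creatine, and a phosphatase then splits phosphocreatine, so that the cycle spends ATP and gives off heat without making other work. It is known from thermogenic brown and beige fat as a route that does not need UCP1, the uncoupling protein of the mitochondrial inner membrane. Creatine itself is made in 2 steps, by GATM from arginine and glycine and then by GAMT with a methyl group from S-adenosylmethionine, or is taken up through the transporter SLC6A8.

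The libraries held 14470542 to 17882713 counts. The 16 RNA FISH probes of the study against *Lexis* were placed on chromosome 4 of mm9 to check the labels, and 9 matched exactly, all inside the noncoding gene *4930412L05Rik* (ENSMUSG00000087192.1, 53217938 to 53230729, minus strand) and 8 of them in its exons. Its counts were 8, 9 and 8 in the AdWT-labelled libraries and 21, 11 and 13 in the AdKO-labelled ones, a log2 fold change of 0.87 (SE 0.381, edgeR adjusted p = 0.851). The count was thus no lower in the AdKO-labelled libraries; the table does not separate the deleted part from the rest of the gene, so it cannot check the deletion, and each direction given below is one between libraries as they are labelled. The study measured *Lexis* by qRT-PCR as well, which is not used here. The second AdWT-labelled library stands apart in muscle genes: the 18 skeletal muscle genes with a row summed to 249.9 CPM in it (counts per 1000000 of a library, scaled by TMM), against 49.9 to 80.7 CPM in the other 5.

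The promoters of the 3 tested members with the highest levels, *Ckb*, *Gatm* and *Phospho1*, are printed as the sequence context of the genes on which the comparison rests. Each is the 200 bases before the gene's start in RefSeq on GRCm38.p6, 5′ to 3′ on the gene's own strand. Capitals mark exact matches on either strand to 4 motifs: the TCF/LEF core CTTTGAT, the nuclear receptor element AGGTCA, the TATA box TATAAA and the CCAAT box CCAAT. The first of these belongs to the factor family of TCF7L2, which the study follows as a partner of *Lexis*.
Ckb, chr12:111672339-111672538, minus strand: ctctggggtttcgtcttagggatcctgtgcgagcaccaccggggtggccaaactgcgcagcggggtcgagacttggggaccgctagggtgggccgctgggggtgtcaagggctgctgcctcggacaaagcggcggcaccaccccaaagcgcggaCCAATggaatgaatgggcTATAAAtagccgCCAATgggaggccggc
Gatm, chr2:122611278-122611477, minus strand: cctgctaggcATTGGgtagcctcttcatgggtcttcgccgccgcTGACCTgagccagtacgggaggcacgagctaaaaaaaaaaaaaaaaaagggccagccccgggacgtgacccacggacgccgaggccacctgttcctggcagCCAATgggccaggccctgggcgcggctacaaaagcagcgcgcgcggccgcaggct
Phospho1, chr11:95824300-95824499, plus strand: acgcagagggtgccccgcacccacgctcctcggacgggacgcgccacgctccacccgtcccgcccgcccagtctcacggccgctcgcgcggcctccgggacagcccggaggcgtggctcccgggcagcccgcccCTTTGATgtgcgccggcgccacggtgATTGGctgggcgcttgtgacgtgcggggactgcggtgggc

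The *Ckb* promoter holds a TATA box beginning 28 bases before the start, with a CCAAT box on each side of it, at 46 and 16 bases. That of *Gatm* holds the nuclear receptor element at 156 bases on the opposite strand and CCAAT boxes at 190 bases (opposite strand) and 55 bases. Of the 3, that of *Phospho1* alone holds the TCF/LEF core, at 66 bases, beside a CCAAT box on the opposite strand at 40 bases. Among 32851 promoters of the same length, 2.45% hold the TCF/LEF core, 11.4% the nuclear receptor element, 9.96% the TATA box and 29.3% the CCAAT box. These matches are of letters only, and none was measured as a bound site here.

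*Ckb*, the cytosolic brain-type creatine kinase and the kinase of the cycle in thermogenic fat, was by far the most abundant of the 4 members tested. The gene (ENSMUSG00000001270.8) lies on the minus strand of mm9 at chr12:112907566-112910549. Its counts were 1504, 1434 and 1041 in the AdWT-labelled libraries and 1383, 1560 and 1990 in the AdKO-labelled ones, or 98.4, 85.7 and 69.7 CPM against 95.1, 102.8 and 119.6 CPM. The third AdKO-labelled library was the highest of the 6 and the third AdWT-labelled one the lowest, and the groups overlapped, since the first AdWT-labelled library lay above the first AdKO-labelled one. The means were 84.6 ± 14.4 CPM (SD, n = 3) and 105.8 ± 12.5 CPM (SD, n = 3). The log2 fold change was 0.32 (SE 0.14), with a 95% interval from -0.01 to 0.65, or from 0.996-fold to 1.57-fold. With edgeR's quasi-likelihood test the unadjusted p was 0.0531 and the Benjamini-Hochberg adjusted p was 0.851, so the difference did not pass the test. A two-sided exact permutation test gave p = 0.2, where 0.1 is the smallest that 3 libraries against 3 allow.

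*Gatm* encodes the mitochondrial amidinotransferase that makes guanidinoacetate, the committed step of creatine synthesis (ENSMUSG00000027199.8, minus strand, chr2:122420203-122437039). It was counted 365, 353 and 172 times in the AdWT-labelled libraries and 321, 432 and 439 times in the AdKO-labelled ones, or 23.9, 21.1 and 11.5 CPM against 22.1, 28.5 and 26.4 CPM. One library was far below the rest, the third AdWT-labelled one, and the other 5 lay between 21.1 and 28.5 CPM with the groups overlapping. The means were 18.8 ± 6.49 CPM and 25.6 ± 3.26 CPM (SD, n = 3 each), a log2 fold change of 0.44 (SE 0.256, 95% interval -0.15 to 1.04) with an unadjusted p of 0.124 and an adjusted p of 0.853 in edgeR's test. The estimates for both genes moved with single libraries. Without the third AdWT-labelled library the log2 fold change was 0.18 for *Gatm* and 0.19 for *Ckb*. Without the first it was 0.65 and 0.45, each then with an unadjusted p under 0.05 in edgeR, and with the muscle list as a covariate that of *Gatm* was 1.26. No adjusted p was under 0.05 in any of these fits. The covariate, the mean log2 CPM of 14 muscle genes, lay higher in every AdWT-labelled library than in any AdKO-labelled one. It therefore cannot be told apart from the group, here or in the later fits with it.

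*Gamt*, the methyltransferase that completes creatine synthesis, had 2 rows, of which 1 held 2 counts in the first AdWT-labelled library and 0 elsewhere and the other was at 0 throughout. A count of 0 allows up to 3 counts, or 0.168 to 0.207 CPM of a library's unscaled total. A low count in this table is no sign that a gene is silent: *Ppia*, a housekeeping gene looked up after its values were seen, held 2 counts over its 2 rows and all 6 libraries, and *Pnpla2*, the triglyceride lipase of adipocytes, is listed at 0 in every library. The level of *Gamt* is therefore unknown here.

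*Slc6a8*, the creatine transporter (X chromosome, plus strand, chrX:70918489-70927841), had 5 rows with few counts. The row with the most held 22, 18 and 19 counts in the AdWT-labelled libraries and 15, 31 and 21 in the AdKO-labelled ones, or 1.26 ± 0.182 CPM against 1.44 ± 0.53 CPM (SD, n = 3 each). The second AdKO-labelled library was the highest and the first AdKO-labelled one the lowest, so the AdWT values lay inside the range of the AdKO values. The log2 fold change was 0.20 (SE 0.317, 95% interval -0.54 to 0.94) and the adjusted p in edgeR's test was 0.913. A second row held 22, 6 and 5 against 14, 7 and 18 counts, another held 1 count in all, and the remaining 2 were at 0. With the 5 rows summed the log2 fold change was again 0.20 (SE 0.297). At this depth the interval holds both lower and higher levels of the transporter.

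**Figure D1:**
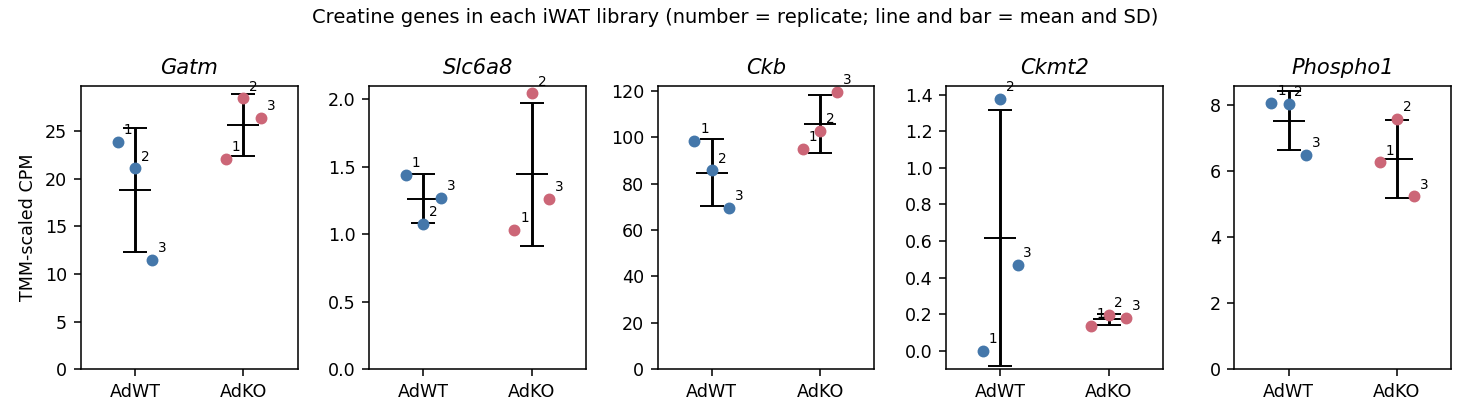
TMM-scaled CPM (y axis, from 0 where the error bar allows) of *Gatm*, *Slc6a8*, *Ckb*, *Ckmt2* and *Phospho1* in each library, with 1 point per library numbered by replicate and the mean and SD of each group as line and bar. *Ckb* ranged from 69.7 to 119.6 CPM and *Gatm* from 11.5 to 28.5 CPM, each lowest in the third AdWT-labelled library, while *Ckmt2* reached 1.38 CPM in the second AdWT-labelled library.

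Compared per kilobase of annotated exon and averaged over the 6 libraries, the level of *Ckb* was 64.4 CPM per kb (range 47.1 to 80.9). *Gatm* followed at 7.41 CPM per kb (3.84 to 9.48), and *Phospho1* at 3.22 CPM per kb (2.43 to 3.74). *Ckmt2* and *Slc6a8* came last of those ranked, at 0.265 and 0.26 CPM per kb. The ranges of the first 3 did not overlap one another, and *Ckmt2* and *Slc6a8* could not be ordered. The *Slc6a8* value takes the most counted of its 5 rows over the exons of the whole gene, and a second row held 0.148 CPM per kb. *Gamt* and *Ckmt1*, which could not be assessed, and *Alpl* were not ranked.

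*Ckmt2* encodes the sarcomeric mitochondrial creatine kinase, found in heart and skeletal muscle and, in thermogenic fat, at the inner membrane where ATP leaves the matrix (minus strand, chr13:91992992-92016490). It had 0, 23 and 7 counts in the AdWT-labelled libraries and 2, 3 and 3 in the AdKO-labelled ones, too few for the test across all rows. Divided by the library's total, the 23 counts of the second AdWT-labelled library carry a 95% Poisson interval of 0.815 to 1.93 CPM, which overlaps that of the 7 counts of the third (0.184 to 0.94 CPM) and lies above those of the other 4, which reach 0.577 CPM at most. These intervals cover counting error only. The difference in mean log2(CPM + 0.5), AdKO minus AdWT, was -0.53 over all libraries, -0.05 without the second AdWT-labelled library and -1.01 without the first. A two-sided exact permutation test over all 6 gave p = 0.4. *Ckmt2* overlaps the gene *1700119I11Rik* on the other strand, and the strand setting of the counting is not given in the sources used here, so reads of the pair cannot be told apart.

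The level of *Ckmt2* was set beside the muscle-type creatine kinase *Ckm*, which is no member and marks striated muscle. *Ckm* had 87, 576 and 29 counts in the AdWT-labelled libraries and 0 in all 3 AdKO-labelled ones, at least 72-fold lower when the floor of 3 counts is put in each AdKO library. Without the second AdWT-labelled library that bound was 19.6-fold. It did not pass edgeR's test after adjustment (unadjusted p = 0.00455, adjusted p = 0.817), though DESeq2 gave an adjusted p of 0.0023. Of the skeletal muscle list, 18 of 25 genes have a row and 12 were tested. In the AdKO-labelled libraries 9 of these 12 lay lower and 3 higher, the median being -1.69 on the log2 scale. Of the 9, 7 had an unadjusted p under 0.05, beside 5.73% of all rows tested, and none passed adjustment in edgeR. DESeq2 gave an adjusted p under 0.05 to 27 rows of the whole table. Among them were 5 genes of the list: *Ckm*, *Tnnc2*, *Mylpf*, *Atp2a1* and *Mybpc2*, the last of which edgeR did not test. The 12 include *Atp2a1*, the calcium pump of fast fibres, at 208, 1214 and 38 counts against 8, 10 and 14, while *Myh4* and *Tnnt3* of the list are at 0 in all 6. The second AdWT-labelled library was highest in *Ckmt2*, *Ckm* and *Atp2a1* alike, and the part of muscle RNA in the *Ckmt2* counts was not tested. The ratio between the sarcomeric kinases was not the same in every library. *Ckmt2* made up 3.84% of their joint counts in the second AdWT-labelled library (exact Clopper-Pearson 95% interval 2.45 to 5.71) and 19.4% in the third (8.19 to 36.0), while the first, with 87 *Ckm* counts, had no *Ckmt2* (0 to 4.15%). In the AdKO-labelled libraries all 8 sarcomeric counts were of *Ckmt2*.

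*Ckmt1*, the ubiquitous mitochondrial kinase, has 3 rows, all at 0, and overlaps *Strc* on the opposite strand (chr2:121183450-121189473, plus strand). Because *Ppia* and *Pnpla2* are near 0 or at 0 in the same table, this is given as a listing and not as absence. Paralogous kinases can share reads, and how many of the counts this touches was not tested. The longest identical stretch between *Ckb* and *Ckm* was 20 bases, and that between *Ckmt1* and *Ckmt2*, the closest pair, was 39 bases.

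Over the 4 creatine kinase genes together, *Ckb* held 94.5% of the counts (Wilson 95% interval 93.3 to 95.5), 70.5% (68.5 to 72.5) and 96.7% (95.4 to 97.6) in the AdWT-labelled libraries. In the AdKO-labelled ones it held 99.9% (99.5 to 99.96), 99.8% (99.4 to 99.9) and 99.8% (99.6 to 99.9). All 3 AdKO shares lay above all 3 AdWT shares, a pattern in that direction that 6.16% of all tested rows showed in their CPM. The means were 87.2 ± 14.5% and 99.8 ± 0.0265% (SD, n = 3 each), with a two-sided exact permutation p of 0.1, the smallest this design allows. The difference of 12.6 percentage points was 4.24 without the second AdWT-labelled library, and 0.587 over all libraries when *Ckm* was not counted, so it came from the *Ckm* counts. The other 17 muscle genes summed to 75.0, 215.4 and 55.7 CPM in the AdWT-labelled libraries and 50.9, 56.8 and 49.9 CPM in the AdKO-labelled ones. The mean log2 CPM of 14 genes of the list, which gives each gene the same weight, was 2.07, 3.07 and 1.23 against 0.29, 0.43 and 0.51. On that measure all 3 AdWT-labelled libraries lay above the AdKO-labelled ones and the second was highest. *Ckm* is 1 of the 14 genes, so a likeness of this mean to *Ckm* is partly built in. In the sum of the other 17 genes the groups overlapped.

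**Figure D2:**
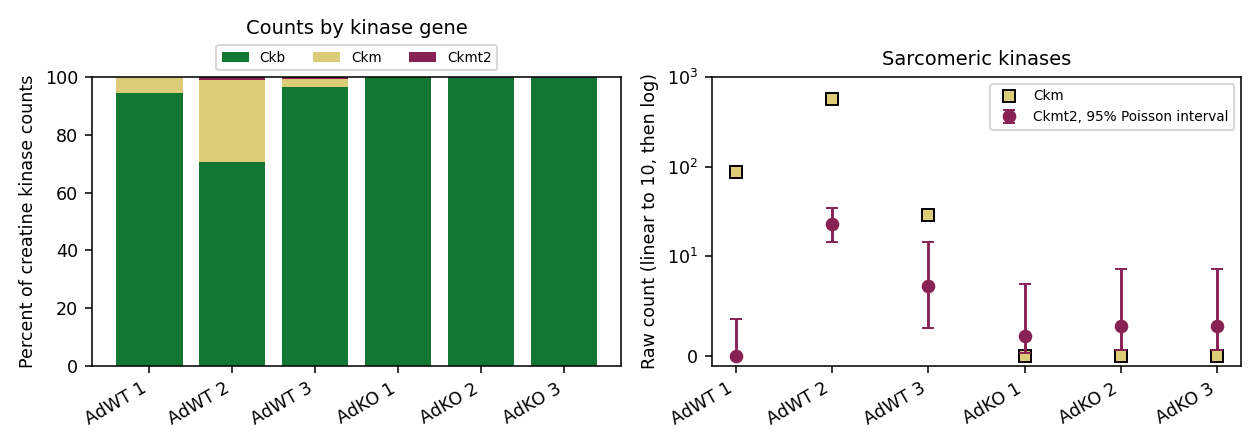
Left, percent of the creatine kinase counts of each library held by *Ckb*, *Ckm* and *Ckmt2* (*Ckmt1* is at 0); right, raw counts of *Ckm* and *Ckmt2* per library on an axis that is linear to 10 and logarithmic above, with 95% Poisson intervals for *Ckmt2*. *Ckm* takes 28.3% in the second AdWT-labelled library and nothing in the AdKO-labelled libraries, and *Ckmt2* is highest where *Ckm* is highest.

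*Phospho1* encodes a cytosolic phosphatase, best known for phosphocholine and phosphoethanolamine in mineralising tissue, that is also present in thermogenic fat (ENSMUSG00000050860.5, plus strand, chr11:95685813-95693454). It had 123, 134 and 97 counts in the AdWT-labelled libraries and 91, 115 and 87 in the AdKO-labelled ones, or 8.05, 8.01 and 6.49 CPM against 6.26, 7.58 and 5.23 CPM. The first 2 AdWT-labelled libraries were the highest, but the second AdKO-labelled one lay above the third AdWT-labelled one. The means were 7.52 ± 0.889 CPM and 6.35 ± 1.18 CPM (SD, n = 3 each). The log2 fold change of -0.24 (SE 0.19, 95% interval -0.69 to 0.20) did not pass edgeR's test (adjusted p = 0.859). The annotation puts *Zfp652* over it on the same strand and *Abi3* on the other, so its count is uncertain to that extent.

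Of the 4 members tested, 3 lay higher and 1 lower in the AdKO-labelled libraries and the median fold change was 0.26 on the log2 scale, against 5105 higher and 4767 lower and a median of 0.01 over all 9872 rows tested. The direction of *Slc6a8* turned without the second AdKO-labelled library (-0.14), and that of *Phospho1* with the muscle covariate (0.0119). None of the 4 had an adjusted p under 0.05, nor did any row of the table (0% called, smallest adjusted p 0.206 in edgeR; DESeq2 called 27 rows, no member among them). At an unadjusted p under 0.05 the count was 0 of 4 beside 5.73% of all rows, or 566. The groups overlapped for all 4, where 11.9% of all rows had groups that did not. The intervals still hold changes of a size that could matter, from 0.898-fold to 2.06-fold for *Gatm* and from 0.621-fold to 1.15-fold for *Phospho1*, so equal expression was not shown.

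**Figure D3:**
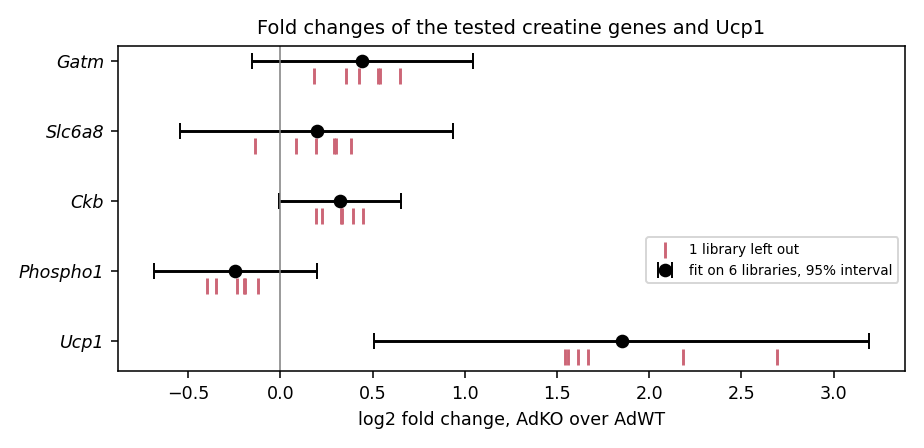
Log2 fold change (x axis, AdKO over AdWT as labelled) of the 4 tested creatine genes and *Ucp1*, with the edgeR estimate and its 95% interval as point and bar and the estimates with 1 library left out as ticks. The intervals of *Gatm*, *Slc6a8*, *Ckb* and *Phospho1* all reach past 0, and that of *Ucp1* runs from 0.51 to 3.19.

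*Ucp1*, set beside the members as the other route of heat production, had 25, 8 and 7 counts in the AdWT-labelled libraries and 21, 58 and 67 in the AdKO-labelled ones. The first AdWT-labelled library lay above the first AdKO-labelled one, so the groups overlapped as those of *Ckb* did. Its means were 0.861 ± 0.671 CPM and 3.1 ± 1.44 CPM (SD, n = 3 each), with a log2 fold change of 1.85 (SE 0.574). The unadjusted p was 0.0135, the adjusted p 0.851 and the two-sided exact permutation p 0.2. Without the first AdWT-labelled library the log2 fold change was 2.69, and without the second it was 1.55, no longer with an unadjusted p under 0.05. With the muscle list as a covariate the estimate was 1.98 and its SE rose to 1.39, so that the unadjusted p was not under 0.05 there either. Averaged over all libraries *Ucp1* stood at 1.2 CPM per kb (range 0.285 to 2.45), which overlaps the ranges of both *Phospho1* and *Slc6a8* and pools both groups. Over the 6 libraries its highest CPM was 8.59 times its lowest, while the same ratio was 1.72 for *Ckb* and 2.47 for *Gatm*. All 3 genes were lowest in the third AdWT-labelled library, and *Ucp1* and *Ckb* were highest in the third AdKO-labelled one. For *Ucp1* these places rest on close counts, 7 against 8 at the low end and 67 against 58 at the high end.

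Genes around the cycle were read from lists chosen by function. In the supply of precursors and methyl groups, 11 of 16 genes were tested, of which 3 were higher and 8 lower with a median log2 fold change of -0.09. At an unadjusted p under 0.05 there were 1 higher and 2 lower, beside 5.73% of all rows tested, and none passed adjustment. *Mat2a*, the catalytic subunit of the enzyme that makes S-adenosylmethionine, had 384, 550 and 322 counts in the AdWT-labelled libraries and 522, 543 and 554 in the AdKO-labelled ones, and in CPM the groups did not overlap (26.5 ± 5.79 against 35.0 ± 1.47, SD, n = 3 each). Its log2 fold change was 0.40 (SE 0.154, edgeR unadjusted p = 0.0348, adjusted p = 0.851). *Mat2b*, the regulatory subunit of the same enzyme, lay the other way at 9.1 ± 0.267 CPM against 6.92 ± 1.05 CPM, a log2 fold change of -0.39 (SE 0.159, adjusted p = 0.851). *Phgdh*, the entry enzyme of serine synthesis, had a log2 fold change of -0.30 (SE 0.117, adjusted p = 0.851). When single libraries were left out, the unadjusted p was 0.05 or more in 5 of 6 fits for *Mat2a*, 5 for *Mat2b* and 4 for *Phgdh*, while the log2 fold changes kept their sign (0.26 to 0.58, -0.50 to -0.29 and -0.42 to -0.21). With the muscle covariate *Mat2a* stood at 0.97 (SE 0.178), still with an unadjusted p under 0.05, and the other two without one.

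Among mitochondrial partners of phosphate transfer, 5 of 12 genes were tested, 1 higher and 4 lower, none with an unadjusted p under 0.05, and the median log2 fold change was -0.02. The most abundant were *Ak3*, the matrix adenylate kinase, and *Slc25a3*, the phosphate carrier, with log2 fold changes of -0.04 (SE 0.0718) and -0.02 (SE 0.0718). These are the tightest values given here, and both lay within 1 SE of 0. Of the phosphatases and phosphate transporters near *Alpl* and *Phospho1* by function, 4 of 10 were tested, 2 higher and 2 lower, none with an unadjusted p under 0.05, with a median of 0.03. *Slc20a2*, a sodium-phosphate cotransporter, and *Pdxp*, the pyridoxal phosphatase, had the highest CPM of these, with log2 fold changes of -0.09 (SE 0.0928) and -0.12 (SE 0.101).

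Of 12 other thermogenic genes, 11 were tested, 6 higher and 5 lower (median 0.13 on the log2 scale), and *Ppargc1a* is listed at 0 in all libraries. At an unadjusted p under 0.05 there were 2 higher, *Ucp1* and *Cox8b*, and 1 lower, *Kcnk3*, beside 5.73% of all rows tested, and none passed adjustment. *Cox8b*, a cytochrome oxidase subunit of brown fat and muscle, had 769, 665 and 498 counts in the AdWT-labelled libraries and 811, 1100 and 982 in the AdKO-labelled ones, with a log2 fold change of 0.60 (SE 0.167, edgeR unadjusted p = 0.00783, adjusted p = 0.847). *Kcnk3*, a potassium channel of brown adipocytes, had a log2 fold change of -0.29 (SE 0.0791, adjusted p = 0.847). With the muscle covariate neither kept an unadjusted p under 0.05, at 0.82 (SE 0.346) for *Cox8b* and -0.10 (SE 0.129) for *Kcnk3*. *Atp2a2*, the calcium pump of the other cycle that does not need UCP1, had 1374, 1601 and 959 counts against 1176, 1547 and 1643, a log2 fold change of 0.17 (SE 0.161, adjusted p = 0.885) with overlapping groups.

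The members with the widest range of log2(CPM + 0.5) over the 6 libraries were *Ckmt2* (1.91) and *Gatm* (1.27), and for each the 3 rows nearest in pattern were sought by the root mean square difference of their deviations. For *Ckmt2* these were *Smtnl1* (0, 11 and 3 counts in the AdWT-labelled libraries, 0 in the AdKO-labelled ones, difference 0.209), *Lmod2* (2, 24 and 5 against 4, 6 and 2, difference 0.228) and the second row of *Focad* (difference 0.239). *Smtnl1* and *Lmod2* are muscle genes. All 3 rows had their highest count in the second AdWT-labelled library, which follows from choosing them for their likeness to *Ckmt2*.

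For *Gatm* the nearest row of the table was *Mrc1*, the mannose receptor of tissue macrophages, with 6020, 5894 and 3260 counts in the AdWT-labelled libraries and 5268, 7534 and 6961 in the AdKO-labelled ones and a difference of 0.0735. *Mmgt2* (0.0758) and *Cpsf6* (0.0879) followed. There were 60.6, 59.9 and 52.8 *Gatm* counts per 1000 of *Mrc1* in the AdWT-labelled libraries and 60.9, 57.3 and 63.1 in the AdKO-labelled ones. Since *Mrc1* was picked as the row most like *Gatm*, this near-constant ratio follows from the choice, and *Mmgt2* and *Cpsf6*, not on any list here, were about as near. *Mrc1* is a gene of the macrophage list, of which 4 of 7 have a row and all 4 lay higher without an unadjusted p under 0.05 (median 0.38 on the log2 scale). The list summed to 1199, 915 and 623 CPM against 1049, 1248 and 1220 CPM, lowest in the library where *Gatm* and *Ckb* were lowest. Its part in the values of *Gatm* was not tested. This likeness describes 6 libraries that share their tissue and scaling, and carries no test.

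**Figure D4:**
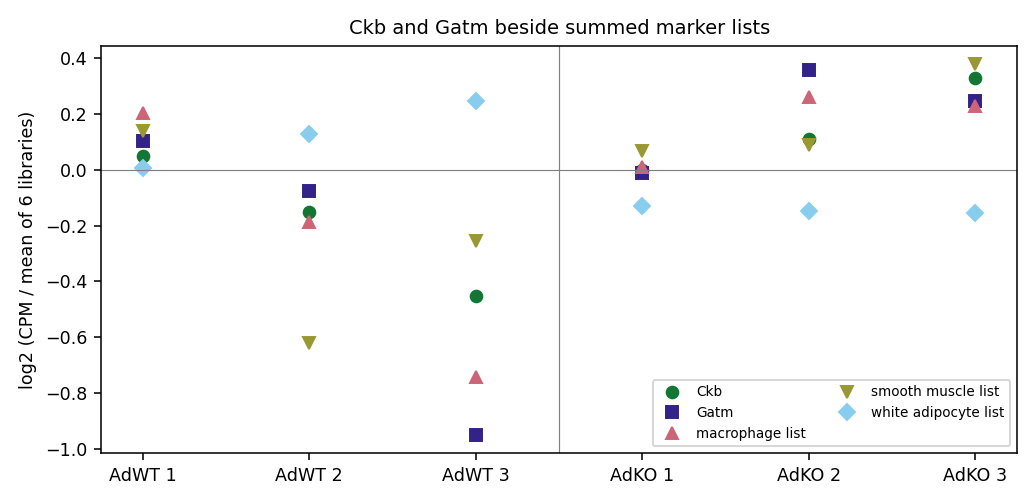
Log2 ratio of the CPM in each library to the mean over the 6 libraries (y axis) for *Ckb*, *Gatm* and the summed macrophage, smooth muscle and white adipocyte lists. *Gatm* and the macrophage list are both lowest in the third AdWT-labelled library, where the white adipocyte sum, mostly *Fabp4*, *Lep* and *Adipoq*, is highest.

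The other marker lists were read for the same purpose, beside the 5.73% of all rows tested that had an unadjusted p under 0.05. The white adipocyte list summed to 46240, 50350 and 54700 CPM in the AdWT-labelled libraries and 42080, 41550 and 41410 CPM in the AdKO-labelled ones, with 1 of 7 tested genes higher and 6 lower, 2 of them with an unadjusted p under 0.05, and a median log2 fold change of -0.23. Its summed groups did not overlap. The sum is nearly all *Fabp4*, *Lep* and *Adipoq*, which were highest in the third AdWT-labelled library, while *Plin1* was at its lowest there (31.8 CPM). *Cd36*, the fatty acid transporter, stood at 18.8 ± 3.94 CPM against 9.62 ± 1.53 CPM (SD, n = 3 each), or -0.97 on the log2 scale (adjusted p = 0.817 in edgeR and 0.0091 in DESeq2). The smooth muscle list, whose cells use *Ckb*, summed to 183, 108 and 139 CPM against 174, 177 and 216 CPM, most of it *Tagln*. Of its 4 tested genes 3 lay higher, none with an unadjusted p under 0.05, and 1 lay lower with one, *Smtn* (1.16 ± 0.473 CPM against 0.298 ± 0.113 CPM, SD, n = 3 each; log2 fold change -1.91, adjusted p = 0.817 in edgeR). The Schwann cell and nerve list summed to 125 to 148 CPM in the AdKO-labelled libraries and 111 to 162 CPM in the AdWT-labelled ones, with all 4 tested genes higher, 1 of them, *Cnp*, with an unadjusted p under 0.05, and the endothelial list 2 of 3 higher (900 to 1283 and 926 to 1336 CPM). Fibroblast, neutrophil and B cell lists had at most 2 tested genes each, none with an unadjusted p under 0.05. The B cell list summed to 8.38 CPM in the first AdWT-labelled library and 0.777 to 3.29 CPM in the other 5. The epithelial list reached 20.3 CPM in the third AdWT-labelled library and 47.9 CPM in the third AdKO-labelled one, and at most 1.44 CPM in the other 4. Which cells the *Ckb* and *Gatm* counts came from was not tested.

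The ratio of *Ckb* to *Gatm* counts, kinase to synthesis, was 4.12, 4.06 and 6.05 in the AdWT-labelled libraries and 4.31, 3.61 and 4.53 in the AdKO-labelled ones. The third AdWT-labelled library stood above the rest, and the other 5 lay within 3.61 to 4.53. The means were 4.75 ± 1.13 and 4.15 ± 0.481 (SD, n = 3 each), and the groups overlapped.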

How the data were processed

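The deposited table holds raw counts per row and library, made by the authors from stranded bulk RNA-seq reads (KAPA kit, Illumina HiSeq) aligned with HISAT2 to mm9; the counting tool, its strand setting and the annotation are not given in the sources used here, and the submitters' processing notes also name DESeq2. A symbol with more than 1 row was read from its most counted row. The 9872 rows kept by edgeR's filterByExpr were scaled by TMM and tested with edgeR 4.0.16 (quasi-likelihood test, R 4.3.3, Benjamini-Hochberg adjustment at 0.05) on 3 libraries against 3; DESeq2 1.42.0 was an alternative. The fit was tested on simulated data. Intervals are at 95% and cover counting error only where they rest on 1 library. Exact permutation tests used log2(CPM + 0.5), except that of the *Ckb* share, which used the percent of kinase counts per library. Genes named with values were the members, *Ckm*, *Ucp1*, genes of the pathway lists (not the cell type markers) with an unadjusted p under 0.05 or else the 2 with the highest CPM, and nearest rows with at least 10 counts; *Atp2a2*, *Ppia*, *Ppargc1a* and all marker genes were added after their values were seen. Members and lists were chosen with earlier results of these data known. Positions are from GENCODE vM1 on NCBIM37 (mm9) and promoters from RefSeq on GRCm38.p6; *Slc6a8* had no promoter entry. The study describes the libraries as biological replicates, 3 per group; the labels tie none to an animal.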

Additional observations from a re-analysis of the deposited data

How the results depend on the processing

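Over 17 alternatives no member had an adjusted p under 0.05; the lowest adjusted p was 0.391 for *Ckb* and 0.415 for *Gatm*. Their log2 fold changes stayed above 0, from 0.19 to 0.62 and from 0.18 to 1.26. With DESeq2 27 rows of the table had an adjusted p under 0.05, against 0 in edgeR, and 1 row did with a filter of at least 1 count in any library; with 1 library left out there were 0 to 1, the latter without AdKO replicate 3. Rows with an unadjusted p under 0.05 numbered 329 (without AdWT replicate 2) to 1208 (without AdWT replicate 1) when 1 library was left out, against 566. Members with an unadjusted p under 0.05 numbered 0 to 2 with a library left out, against 0: *Ckb* (log2 fold change 0.45) and *Gatm* (0.65) without AdWT replicate 1, and *Ckb* alone (0.39) without AdKO replicate 1. With the filter of 1 count in any library 1 member did, *Ckb*, and with the skeletal muscle list as a covariate 1 did, *Gatm* (log2 fold change 1.26, SE 0.435). That covariate lay higher in every AdWT-labelled library than in any AdKO-labelled one, so fits with it cannot tell it apart from the group. The sign turned for *Phospho1* with that covariate (0.0119) and for *Slc6a8* without AdKO replicate 2 (-0.14, against up to 0.38 without AdKO replicate 1). The difference in the share of *Ckb* among kinase counts was 4.24 (without AdWT replicate 2) to 17.3 points (without AdWT replicate 3) with 1 library left out and 0.587 points when *Ckm* was not counted. The cause of these changes was not tested. The median log2 fold change of the 4 members lay between 0.10 and 0.39 throughout, and no scaling moved the median of all rows by over 0.1.

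Libraries with the same replicate number did not all deviate together (correlations of -0.10, -0.12 and 0.35). The highest correlation was that of AdWT replicate 1 with AdKO replicate 2 (0.45), so the numbers were not taken as pairs. With the replicate block 0 rows had an adjusted p under 0.05 and 418 an unadjusted one under 0.05. The median of the members was then 0.25, and the log2 fold change was 0.33 for *Ckb* and 0.50 for *Gatm*. Not every library correlated best with its own number. Precision is lowest for *Slc6a8* and *Ckmt2*, with few counts, and *Gamt* and *Ckmt1* could not be assessed; why their counts are low was not tested. Of the unadjusted calls beside the members, those of *Ckm*, *Cox8b* and *Kcnk3* held in all 6 fits with a library left out. That of *Ucp1* held in 5, *Phgdh* in 2, and *Mat2a* and *Mat2b* in 1 each. With the muscle covariate that of *Mat2a* held (0.97). Those of *Cox8b* (0.82), *Kcnk3*, *Ucp1* (1.98), *Phgdh* and *Mat2b* did not hold there. *Ckm* is 1 of the 14 genes averaged into that covariate, so its fit with the covariate is no check on its call.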
